A study of Lactuca sativa var. capitata with 10 samples.

Results

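In lettuce roots, 328 genes of low to middle expression had a mean in chitin-treated pools of at most 0.5 times that of control pools, with every chitin-treated pool below every control pool. They were found among 38293 counted genes, with expression as CPM (the count of a gene scaled to 1000000 counts of its library). A gene was a member when its mean over the control pools was at least 2 and under 20 CPM, its highest chitin-treated pool was below its lowest control pool, and its chitin-treated mean was at most 0.5 times its control mean. A further 2 genes that met these limits were left out by name. The measured difference between the treatments therefore chose the members, and it is given below as a description, with no test.

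The roots came from butterhead lettuce (Lactuca sativa var. capitata 'Alexandria', genotype wt). Seedlings were transplanted into potting soil with 2 g crab-shell chitin per L (PS+CH) or into the same soil without chitin (PS), and roots were collected at 72 hpt (hours post transplanting). Each treatment had 5 libraries, each from the pooled roots of 5 randomly selected plants, so that the n of every comparison is 5 pools against 5 pools. Roots were taken whole, and a tissue or cell type within the root was not separated.

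Chitin is a polymer of N-acetylglucosamine that is found in the cell walls of fungi and in the shells of crustaceans and insects. In Arabidopsis and rice, pieces of chitin are bound at the cell surface by receptors with LysM domains, which start a defence response, and chitin in soil is also food for microbes that can change the surroundings of a root. The counts name genes only by locus tag (LSAT, a number read here as the chromosome, X and a number read as the order along it), and no table used here pairs the tags of the members with a product. Of 31 locus tags that the primer list of the study pairs with a name, 10 had a control mean in this range and 0 were members, but 1 of the 31 is among the 2 genes that met every limit and were left out by name. The members are therefore described by position, level and pool, and nothing is said of what they encode. The labelled tissue could not be checked against root markers for the same reason.

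Total counts per library were between 17624520 and 18545790 in PS+CH and between 17644457 and 18212943 in PS, so that 3 counts corresponded to 0.162 to 0.170 CPM. Between 25093 and 25696 genes were detected (at least 1 count) in PS+CH libraries, against 25313 to 25884 in PS libraries. Pool 3 of PS (PS 3) lay at the end of the range of its treatment in several measures, close to the next pool in some. It had the most detected genes (25884) and the lowest share of counts in its 100 most abundant genes (14.1%, with 14.3 to 15.2% in the other PS pools and 14.8 to 15.6% in the PS+CH pools), and the scaling factor of the TMM method (trimmed mean of M-values) was highest there, with 1.08 against 1.01 to 1.03 in the other PS pools and 0.949 to 0.986 in the PS+CH pools. Its total count, 17644457, was the lowest of the PS libraries. Folds of the members whose pools are printed are given with and without PS 3. Some counts, spreads and fits were also repeated without it, and the cause of its difference was not tested.

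Of the 38293 genes, 9569 had a PS mean in the window of 2 to 20 CPM. Every PS+CH pool was below every PS pool in 996 of them (10.4%), and every PS+CH pool was above every PS pool in 181 (1.89%). The PS+CH mean was at most 0.5 times the PS mean in 629 genes of the window, of which 330 also had no overlap. A further 666 genes had no overlap but a smaller difference, and 299 met the limit on the means but not the one on overlap. In the other direction, 13 genes (0.136% of the window) had at least 2 times the PS mean without overlap, whereas the 328 members were 3.43% of the window. The split between the directions depended on the scaling. With column totals, 84.6% of the genes without overlap were lower in PS+CH, while with TMM-scaled library sizes 706 were lower and 346 higher (67.1% lower), and with the size factors of DESeq2 722 were lower and 341 higher (67.9% lower). Among genes that also met the limit of 2-fold, TMM-scaled values gave 246 lower and 27 higher, so that 90.1% were lower against 96.2% with column totals. In pooled roots, fewer cells of a type and less RNA per cell cannot be told apart.

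**Figure D1:**
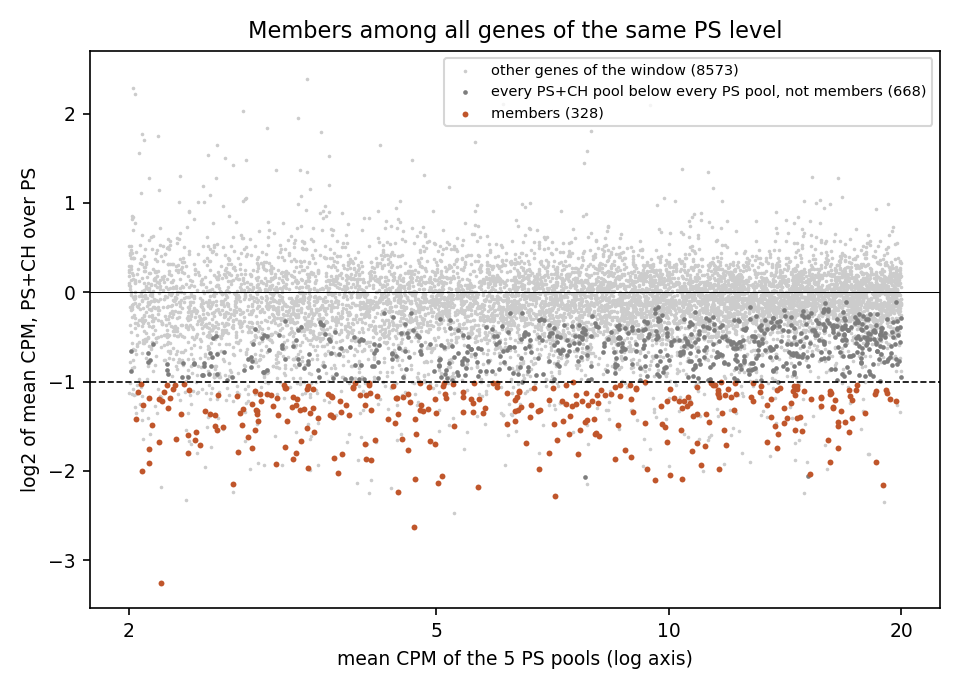
Each point is a gene with a PS mean of 2 to 20 CPM. The x axis gives the mean CPM of the 5 PS pools (log axis) and the y axis the log2 of mean PS+CH CPM over mean PS CPM. The 328 members (orange) lie below the dashed line at -1 over the whole range of levels, dark grey points had no overlap but did not become members, and light grey points are the other genes of the window, whose values lie mostly near 0.

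Members had a median mean level of 2.48 CPM in PS+CH (range 0.232 to 8.98) and of 6.38 CPM in PS (range 2.04 to 19.7). The ratio of the means was 2.00-fold to 9.51-fold lower in PS+CH, with a median of 2.44-fold and quartiles of 2.21-fold and 2.85-fold. Most members lay near the limit that chose them. In 180 of the 328 the ratio was above 0.4, in 67 it was at most 1/3, and in 15 at most 1/4. On the log2 scale the median ratio was -1.29, beside -0.14 over all genes of the window. The rule holds the difference at 2-fold or more at every level, and its median was 2.50-fold in the 135 members of 2 to 5 CPM, 2.41-fold in the 93 members of 5 to 10 CPM and 2.33-fold in the 100 members of 10 to 20 CPM.

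With edgeR's quasi-likelihood test over 21936 genes, which used the same contrast as the rule, 643 genes (2.93%) were called lower in PS+CH (Benjamini-Hochberg adjusted p-value under 0.05, log2-fold change at most -1). All 328 members were tested and 267 of them (81.4%) were among these calls. An adjusted p-value under 0.05 alone was reached by 324 members. In 57 members the log2-fold change was above -1 after TMM scaling, and the values of all members lay between -3.11 and -0.90, with a median of -1.19 beside 0.00 over all genes tested. Without PS 3, 162 of the members were called. With a block for the replicate numbers of the sample descriptions, over the 8 libraries whose numbers both treatments share, 0 members were called, and 0 in a test against a log2-fold change of 1 (glmTreat), where 259 and 122 had an unadjusted p-value under 0.05 and lay at or past -1. Since the rule chose the members on these same values, nothing is read from their count.

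The 8 members with the lowest ratios lay on 7 chromosomes. LSAT_9X106200 had 0.164, 0.324, 0.284, 0.108 and 0.279 CPM in the PS+CH pools, against 2.36, 0.784, 4.25, 2.95 and 0.659 CPM in the PS pools (pools are given in the order of their replicate number, 1 to 5). All PS+CH pools were near the floor of 0.162 to 0.170 CPM, and the PS pools themselves spread widely, with pools 2 and 5 far below pools 1, 3 and 4. The means were 0.232 ± 0.0913 CPM in PS+CH and 2.202 ± 1.52 CPM in PS (SD, n = 5 each), which is 9.51-fold lower, and 7.30-fold without PS 3. This was the most extreme ratio of the members, and it rests on 2 to 6 counts in each PS+CH library against 12 to 75 counts in each PS library.

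LSAT_4X116280 had 1.04, 0.216, 1.36, 0.539 and 0.614 CPM in the PS+CH pools, against 3.10, 2.74, 11.1, 3.90 and 2.58 CPM in the PS pools. PS 3 was far above the other 4 PS pools here, and PS+CH 2 was far below the other PS+CH pools. The means were 0.754 ± 0.449 CPM in PS+CH and 4.67 ± 3.60 CPM in PS (SD, n = 5 each), or 6.20-fold lower, which became 4.09-fold without PS 3. LSAT_6X42860 had 1.53, 0.755, 1.93, 1.40 and 1.73 CPM in the PS+CH pools, against 6.64, 3.75, 11.4, 10.8 and 2.96 CPM in the PS pools. In this gene PS 3 and PS 4 were both high, PS 2 and PS 5 were both low, and the lowest PS pool was still 1.54 times the highest PS+CH pool. LSAT_6X42860 was 4.85-fold lower in PS+CH, and 4.11-fold without PS 3.

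LSAT_2X68981 had 1.37, 0.755, 1.25, 0.701 and 0.670 CPM in the PS+CH pools, against 2.42, 3.02, 9.29, 4.01 and 3.57 CPM in the PS pools. As in LSAT_4X116280, 4 PS pools lay close to each other and PS 3 was more than 2 times the next highest. LSAT_5X72480 had 1.75, 0.431, 1.25, 1.24 and 1.56 CPM in the PS+CH pools, against 2.87, 4.03, 10.1, 5.35 and 5.93 CPM in the PS pools. PS+CH 2 was again the lowest of all pools, and PS 3 the highest. The differences were 4.71-fold for LSAT_2X68981 and 4.54-fold for LSAT_5X72480, against 3.43-fold and 3.65-fold without PS 3.

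LSAT_8X71141 had 4.05, 2.32, 5.67, 4.42 and 4.80 CPM in the PS+CH pools, against 13.6, 15.1, 30.4, 19.7 and 16.0 CPM in the PS pools. Here the groups were separated by a wide gap, since the lowest PS pool was 2.39 times the highest PS+CH pool. The means of 4.25 ± 1.24 CPM in PS+CH and 18.9 ± 6.78 CPM in PS (SD, n = 5 each) made this the member with the lowest ratio among those of 10 to 20 CPM. LSAT_7X10841 had 0.547, 0.378, 0.567, 0.647 and 0.949 CPM in the PS+CH pools, against 2.42, 2.41, 4.65, 2.68 and 1.48 CPM in the PS pools. LSAT_2X89180 had 0.930, 0.647, 1.93, 0.755 and 1.45 CPM in the PS+CH pools, against 5.12, 2.18, 10.03, 5.35 and 2.42 CPM in the PS pools. In LSAT_7X10841 the 5 PS+CH pools stayed below 1 CPM, whereas in LSAT_2X89180 the highest PS+CH pool came near to the 2 lowest PS pools. The 3 genes of this paragraph were 4.45-fold, 4.42-fold and 4.39-fold lower in the order given, and 3.78-fold, 3.64-fold and 3.30-fold without PS 3.

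**Figure D2:**
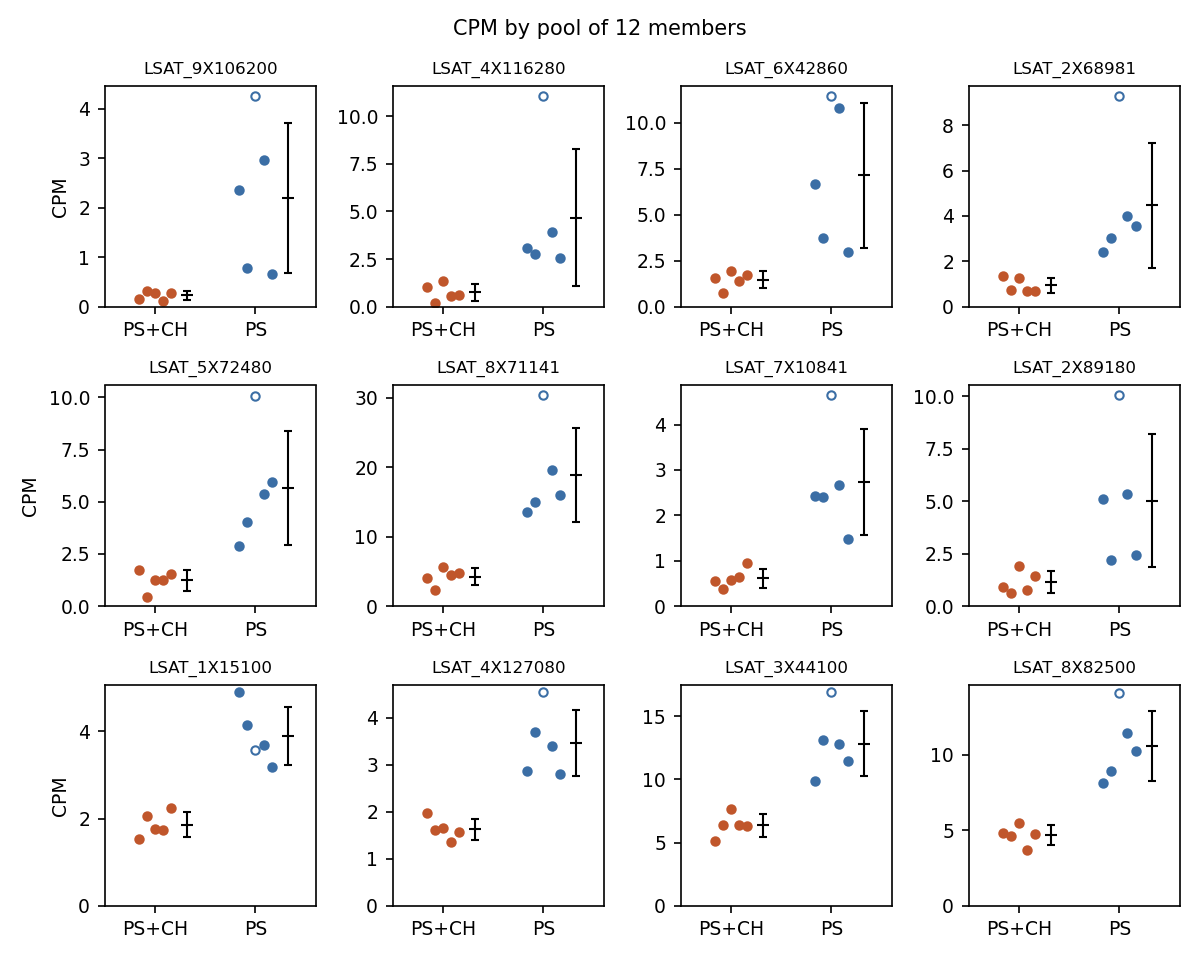
CPM by pool of 12 members, PS+CH left and PS right in each panel: the 8 members with the lowest ratio of means (upper 2 rows) and the 4 with the least spread within treatments (bottom row). Points are pools, the open point is PS 3, and the bar beside the points is the mean with the SD (n = 5). PS 3 is the highest point in 11 of the 12 panels, the exception being LSAT_1X15100.

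At the upper end of the window stood LSAT_6X3201, LSAT_3X36460, LSAT_7X11081 and LSAT_7X56421, the members with the highest PS means. LSAT_6X3201 had 9.13, 6.20, 9.99, 8.68 and 8.49 CPM in the PS+CH pools, against 18.6, 16.2, 31.6, 17.7 and 14.3 CPM in the PS pools. LSAT_7X56421 had 7.05, 9.76, 13.1, 5.39 and 9.60 CPM in the PS+CH pools, against 13.8, 22.9, 27.3, 17.1 and 14.4 CPM in the PS pools. Within PS+CH, LSAT_6X3201 varied little apart from a lower pool 2, while in LSAT_7X56421 the PS+CH pools spread more than 2-fold and their highest pool was just below the lowest PS pool. The differences were 2.32-fold for LSAT_6X3201, 2.29-fold for LSAT_3X36460, 2.18-fold for LSAT_7X11081 and 2.13-fold for LSAT_7X56421. Without PS 3 only LSAT_3X36460 of these 4 remained at 2-fold or more, with 2.02-fold, and the others were 1.97-fold, 1.82-fold and 1.90-fold lower.

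At the lower end stood LSAT_5X38020, LSAT_4X4901, LSAT_3X138540 and LSAT_3X40760, with PS means of 2.04 to 2.08 CPM. LSAT_5X38020 had 0.656, 0.539, 0.851, 0.863 and 0.893 CPM in the PS+CH pools, against 1.52, 2.18, 3.23, 1.62 and 1.65 CPM in the PS pools. LSAT_3X40760 had 0.273, 0.216, 0.908, 0.755 and 0.447 CPM in the PS+CH pools, against 1.97, 1.18, 4.19, 1.73 and 1.32 CPM in the PS pools. The PS+CH pools of LSAT_5X38020 lay within a narrow range and did not reach the PS pools, while those of LSAT_3X40760 differed more than 4-fold among themselves and corresponded to only 4 to 16 counts. LSAT_5X38020 and LSAT_3X40760 were 2.68-fold and 4.00-fold lower in PS+CH, and 2.29-fold and 2.98-fold without PS 3. LSAT_4X4901 and LSAT_3X138540 were 2.17-fold and 2.03-fold lower, and 1.90-fold and 1.91-fold without PS 3, and in both the lowest PS pool exceeded the highest PS+CH pool by less than 1.1 times.

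Precision differed with level. Members had a median of 45 counts per PS+CH library (range of the means 4.2 to 162.6) and of 114 counts per PS library (36.4 to 351.2). Counting error alone would give such means a coefficient of variation (CV) of 14.9% in PS+CH and 9.37% in PS (medians over members, Poisson). No member had a library at 0 counts. In 4 members a PS+CH library was under 3 counts, and in 30 members under 10 counts, while 0 members had a PS library under 10 counts.

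The measured CV over pools was above that of counting. Its median over the members was 29.1% in PS+CH and 35.1% in PS, beside 15.2% and 17.9% over all genes of the window. In PS much of this spread came with a single pool, since without PS 3 the median CV of the members in PS was 18.9% (15.0% for the window). With all pools, the CV was larger in PS than in PS+CH in 230 of the 328 members, and without PS 3 in 75. Since the rule asks for means that differ and pools that do not overlap, these spreads are those of chosen genes.

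The 4 members with the least spread were LSAT_1X15100, LSAT_4X127080, LSAT_3X44100 and LSAT_8X82500. LSAT_1X15100 had 1.53, 2.05, 1.76, 1.73 and 2.23 CPM in the PS+CH pools, against 4.90, 4.14, 3.57, 3.68 and 3.18 CPM in the PS pools. LSAT_8X82500 had 4.81, 4.64, 5.50, 3.72 and 4.75 CPM in the PS+CH pools, against 8.16, 8.96, 14.1, 11.4 and 10.3 CPM in the PS pools. In LSAT_1X15100 no pool stood out and PS 3 was the second lowest of the PS pools, while LSAT_8X82500 had PS 3 highest but within reach of PS 4 and PS 5. The CVs of LSAT_1X15100 were 15.0% in PS+CH and 16.9% in PS, and those of LSAT_8X82500 13.6% and 22.0%. These members were 2.09-fold, 2.12-fold, 2.02-fold and 2.26-fold lower in the order named above, which is close to the limit of 2-fold. Without PS 3 the values were 2.14-fold, 1.96-fold, 1.86-fold and 2.07-fold.

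Within each treatment the pools differed in the level of the members. Relative to the PS mean of each gene, the median over the 328 members was 38.5, 31.2, 49.98, 37.6 and 39.7% in the PS+CH pools, against 85.7, 83.5, 155, 88.8 and 81.9% in the PS pools. Over all genes of the window the same medians were 86.9, 90.1, 91.3, 86.9 and 91.2% in the PS+CH pools, against 95.3, 99.1, 109, 97.4 and 96.2% in the PS pools. PS 3 was therefore high for the members and to a smaller extent for the window, whereas 4 of the 5 PS pools lay between 81.9 and 88.8%. In PS+CH, pool 3 was the highest and pool 2 the lowest, and the other 3 pools were close to each other.

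**Figure D3:**
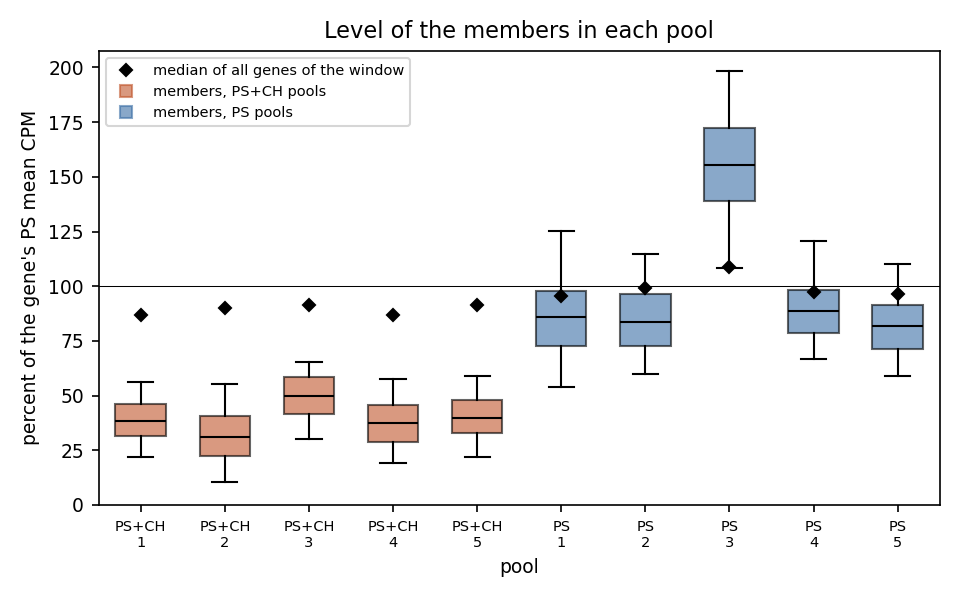
Level of the 328 members in each pool as percent of the PS mean CPM of the same gene. Boxes span the quartiles with the median as a line, whiskers span the 5th to 95th percentiles, and diamonds are medians over all 9569 genes of the window. PS 3 has a median of 155%, the other PS pools of 81.9 to 88.8%, and the PS+CH pools of 31.2 to 49.98%, while the diamonds stay between 86.9 and 109%.

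Summed over the members, the PS+CH pools had 984, 806, 1274, 956 and 1030 CPM, against 2184, 2139, 3953, 2282 and 2083 CPM in the PS pools. The sums did not overlap, as the rule requires of each gene. Their means were 1010 ± 170 CPM in PS+CH and 2528 ± 800 CPM in PS (SD, n = 5 each), and 2172 ± 84.0 CPM in PS without PS 3 (SD, n = 4).

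PS 3 was the highest of the 5 PS pools in 287 of the 328 members (87.5%), against 41.3% of all genes of the window. A pool that raises the PS mean helps a gene to meet the limit on the ratio, so that part of this share can follow from the rule. Among the 666 genes of the window without overlap that missed the limit on the means, PS 3 was the highest in 78.8%. Median excess over the mean of the other 4 PS pools was 1.80-fold in the members and 1.11-fold in the window. In 252 members PS 3 was at least 1.5 times that mean, in 159 it was at least 1.5 times the next highest PS pool, and in 10 it was below the mean of the others. The other PS pools shared the second place, with PS 4 highest of these 4 in 103 members, PS 1 in 100, PS 2 in 77 and PS 5 in 48. Among the PS+CH pools, pool 3 was the highest in 183 members (55.8%, against 23.1% in the window), and PS+CH 2 was the lowest in 172. The lowest PS pool varied more from gene to gene, being PS 5 in 107 members, PS 1 in 95, PS 2 in 77 and PS 4 in 49.

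**Figure D4:**
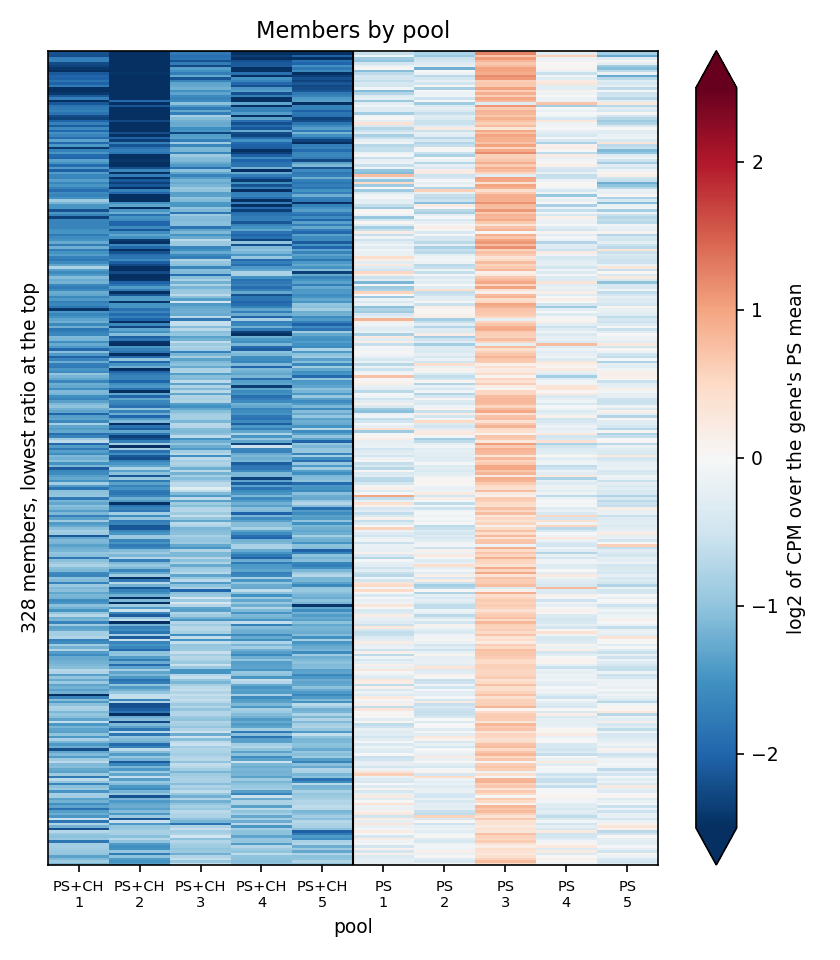
Heat map of the 328 members (lines, ordered by the ratio of means with the lowest at the top) in the 10 pools (columns, PS+CH left and PS right of the black line). Colour gives the log2 of the CPM over the PS mean of the same gene, blue below and red above it, and values beyond 2.5 in size have the end colour. The PS 3 column is red for nearly all genes and the PS+CH 2 column holds the darkest blue.

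Leaving PS 3 out of the means moved the median ratio of the members to 0.475, beside 0.410 with all pools. Of the 328 members, 209 (63.7%) were still at 0.5 or less, and 119 were above it. The median difference was 2.39-fold in the 41 members in which another PS pool was the highest and 2.45-fold in the 287 with PS 3 on top, both sets being held at 2-fold or more by the rule.

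The members most above in PS 3 were LSAT_4X116280, LSAT_1X28480, LSAT_4X111181 and LSAT_9X70980. LSAT_1X28480 had 6.02, 4.75, 5.39, 3.29 and 5.30 CPM in the PS+CH pools, against 14.9, 11.3, 37.8, 10.5 and 8.51 CPM in the PS pools. LSAT_9X70980 had 4.43, 2.64, 3.29, 4.85 and 2.62 CPM in the PS+CH pools, against 8.33, 5.94, 22.8, 8.31 and 6.48 CPM in the PS pools. Apart from PS 3 the PS pools of these genes were between 5.94 and 14.9 CPM, all above the PS+CH pools of the same gene. PS 3 was 3.35 times the mean of the other PS pools in LSAT_1X28480 and 3.14 times in LSAT_9X70980. Without it, LSAT_1X28480 was 2.28-fold lower in place of 3.35-fold, and LSAT_9X70980 2.04-fold in place of 2.91-fold. LSAT_4X111181 had 2.62, 1.46, 4.31, 1.78 and 2.07 CPM in the PS+CH pools, against 7.66, 6.50, 23.5, 9.98 and 4.34 CPM in the PS pools. The last gene was 4.25-fold lower in PS+CH, and 2.91-fold without PS 3, although its pools nearly met, with PS+CH 3 just below PS 5.

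The members least above in PS 3 were LSAT_5X106501, LSAT_7X80341, LSAT_8X115421 and LSAT_5X19220. LSAT_8X115421 had 3.50, 3.29, 3.40, 3.34 and 3.35 CPM in the PS+CH pools, against 18.6, 7.56, 8.95, 7.25 and 12.02 CPM in the PS pools. The PS+CH pools of this gene were the most alike of all members, with a CV of 2.35%, below what counting error gives on average at about 61 counts, and in PS it was pool 1 that stood out, followed by pool 5. LSAT_5X106501 had 2.41, 1.19, 2.95, 2.16 and 2.62 CPM in the PS+CH pools, against 4.90, 3.14, 4.08, 8.97 and 4.61 CPM in the PS pools. In LSAT_5X106501 it was PS 4 that stood out, and PS 2 came close to PS+CH 3. Both were lower with and without PS 3, LSAT_8X115421 3.22-fold and 3.37-fold, and LSAT_5X106501 2.27-fold and 2.39-fold.

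Members also differed in the width of the gap between the treatments. The lowest PS pool was between 1.00 and 2.50 times the highest PS+CH pool, with a median of 1.22 times, and in 69 members it was under 1.1 times. In 7 members, chosen after their values were seen, the lowest PS pool was at least 2 times the highest PS+CH pool. They were LSAT_5X19740, LSAT_8X71141, LSAT_2X19020, LSAT_0X41520, LSAT_8X115421, LSAT_1X111521 and LSAT_9X106200. LSAT_5X19740 had 5.47, 2.27, 5.45, 5.88 and 5.75 CPM in the PS+CH pools, against 14.7, 16.0, 28.8, 18.2 and 15.2 CPM in the PS pools. LSAT_2X19020 had 1.59, 0.539, 2.27, 2.10 and 2.12 CPM in the PS+CH pools, against 5.40, 6.33, 10.4, 6.86 and 4.94 CPM in the PS pools. LSAT_1X111521 had 2.84, 0.917, 3.18, 3.18 and 2.01 CPM in the PS+CH pools, against 6.53, 8.74, 15.4, 11.6 and 8.02 CPM in the PS pools. In all 3 genes PS+CH 2 was clearly the lowest pool and PS 3 the highest, and the rest of each treatment lay together. LSAT_0X41520 had 1.09, 0.863, 1.42, 1.29 and 0.837 CPM in the PS+CH pools, against 2.98, 4.31, 8.90, 3.18 and 4.12 CPM in the PS pools. The PS+CH pools of LSAT_0X41520 were all below 1.5 CPM and 4 of its PS pools were between 2.98 and 4.31 CPM. Differences were 3.74-fold for LSAT_5X19740, 3.94-fold for LSAT_2X19020, 4.14-fold for LSAT_1X111521 and 4.27-fold for LSAT_0X41520, and 3.23-fold, 3.41-fold, 3.59-fold and 3.31-fold without PS 3.

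Each limit of the rule cut through a continuous range of values. Just inside the limit on the ratio were LSAT_5X190081, LSAT_9X87781 and LSAT_3X98381, with ratios of 0.4998, 0.4979 and 0.4971, and just outside it LSAT_5X701, LSAT_0X15161 and LSAT_2X3461, with 0.5002, 0.5004 and 0.5028. LSAT_2X3461 would have shown a clear gap, with 9.45 ± 0.338 CPM in PS+CH and 18.8 ± 4.93 CPM in PS (SD, n = 5 each). For the overlap, LSAT_5X19220, LSAT_0X2801 and LSAT_8X36680 were members with a lowest PS pool of 1.0005, 1.0025 and 1.0049 times the highest PS+CH pool. LSAT_5X86680, LSAT_2X117381 and LSAT_2X72561 missed this limit with 0.9985, 0.9985 and 0.9996 times. In counts such gaps are a read or less in a library. For the level, LSAT_2X71320, LSAT_3X3441 and LSAT_1X50801 had PS means of 1.95, 1.97 and 2.00 CPM, just below the lower bound, and LSAT_4X62400, LSAT_2X11060 and LSAT_3X90920 had 20.04, 20.49 and 20.66 CPM, at or above the upper one.

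To read a pool that took no part in the choice, the rule was applied to 9 pools and the level in the tenth was taken. Leaving out each PS+CH pool in turn, the other 9 chose 328, 308, 492, 346 and 370 genes (for PS+CH 1 to 5 left out), of which 308, 289, 326, 316 and 318 were members. The unused PS+CH pool was below all PS pools in 95.7, 96.1, 73.0, 94.8 and 91.6% of them. Over all genes of the window the same pools were below all PS pools in 39.5, 36.2, 26.7, 39.3 and 31.1%. In the chosen genes its median level was 39.8, 32.1, 56.5, 39.2 and 42.3% of the PS mean. Thus PS+CH pools that did not help to choose the genes were low in most of them, with PS+CH 3 the least so. The PS pools they were set against did take part in the choice, which favours genes with high PS values. Part of the difference from the window can therefore follow from the rule.

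The unused PS pool gave a less even picture, and here too the pools it was set against had taken part in the choice. The other 9 pools chose 477, 437, 209, 369 and 378 genes when PS 1 to 5 were left out, and the unused pool was above all PS+CH pools in 70.9, 79.9, 99.5, 92.1 and 93.7% of them, beside 31.99, 37.3, 50.4, 35.1 and 33.5% over all genes of the window that the other pools set. In the chosen genes its median level relative to the mean of the 4 PS pools that were used was 69.4, 72.7, 178, 81.9 and 75.5%. PS 3 was therefore high in the 209 genes chosen without it, 195 of them members (median 178%, beside 111% in the window), in 197 of them above the mean of the other PS pools, and this level took no part in their choice. The other 4 PS pools, when unused, lay below the mean of a set that held PS 3. At most 0.5 times that mean were 121 genes for PS 1, 62 for PS 2, 16 for PS 4 and 24 for PS 5.

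**Figure D5:**
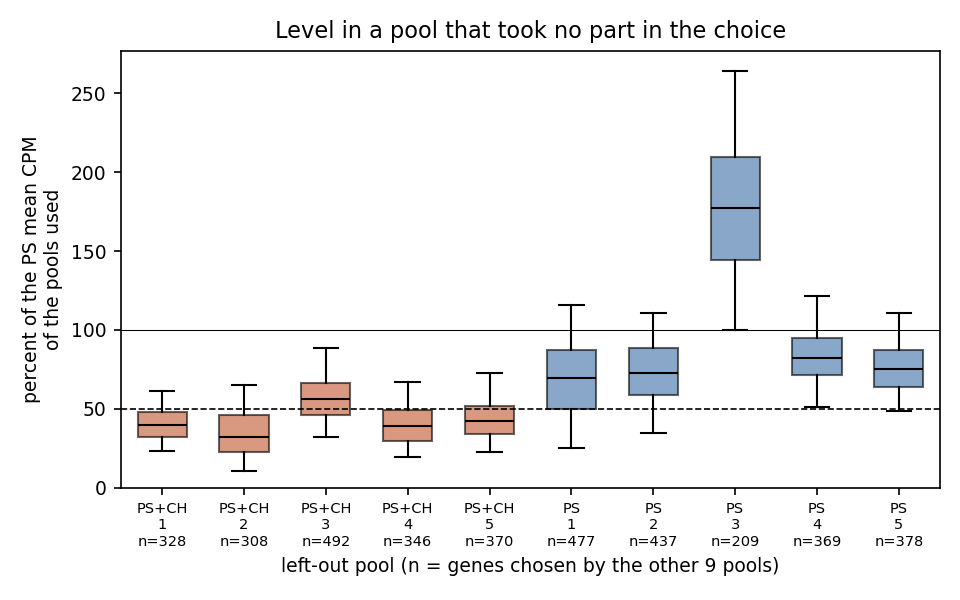
Level in a pool that was not used to choose the genes, as percent of the mean CPM of the PS pools that were used, for PS+CH pools (left, orange) and PS pools (right, blue). Boxes span the quartiles with the median as a line, whiskers the 5th to 95th percentiles, and n is the number of genes chosen by the other 9 pools; lines mark 50 and 100%. Medians are 32.1 to 56.5% for the PS+CH pools, 178% for PS 3 and 69.4 to 81.9% for the other PS pools.

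Genes above the window showed a similar pattern over the pools. With the same limits on ratio and overlap, 138 genes with a PS mean of 20 CPM or more were found, with a median of 2.41-fold lower in PS+CH. Their medians relative to the PS mean were 37.4, 30.8, 51.6, 39.5 and 43.5% in the PS+CH pools, against 78.7, 86.7, 159, 93.9 and 81.4% in the PS pools. PS 3 was the highest pool in 92.8% of them. At these levels counting error is small, with a median Poisson CV of 5.26% in PS+CH and 3.47% in PS, and the measured CVs were 25.1% and 35.8% (17.8% in PS without PS 3). The spread between pools of the members was thus of the same size as that of genes with several times as many counts. In the 13 genes of the window that were at least 2-fold higher in PS+CH, PS 3 was the lowest PS pool in 7.

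Position along the genome was not used by the rule. Members lay on all 9 chromosomes, and 7 were on sequence that the tags number 0. Chromosome 8 held 59 members (17.99%), against 13.1% of the genes of the window, and 4.71% of its window genes were members. For the other chromosomes the share of window genes that were members was between 2.76% (chromosome 3, 25 members) and 3.54% (chromosome 7, 31 members), and it was 3.52% for the tags numbered 0. Of the 209 genes chosen without PS 3, 17.2% were on chromosome 8, whereas of the 138 more abundant genes 10.1% were there. These shares are descriptions, as neighbouring genes are not independent.

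In tag order, 33 of the 328 members (10.1%) had another member at most 3 listed genes away, and they formed 15 pairs and 1 run of 3. The share that as many other genes would reach is not given here, so neither closeness nor isolation is read from it. In 14 of these 16 groups the same PS pool was the highest in each gene, and in 12 of them that pool was PS 3, which is the highest in 87.5% of all members. Nearest genes of the members that were not members themselves numbered 632, of which 359 were tested by edgeR. Among these, 13 (3.62%) were called lower and 0 were called higher, with a median log2-fold change of -0.05. Over all genes 2.93% were called lower, but that share includes the 267 members called, while these neighbours include no member. Those shares are therefore not like for like. Of 146 such neighbours in the window, 10 (6.85%) had every PS+CH pool below every PS pool, and 0 had every PS+CH pool above. Over all genes of the window these shares were 10.4% and 1.89%. The 10.4% includes the 328 members, all without overlap by the rule, so it is no like measure for neighbours that are not members.

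The run of 3 was on chromosome 7 and held LSAT_7X20161, LSAT_7X20181 and LSAT_7X20220. LSAT_7X20161 had 1.09, 0.863, 1.70, 1.29 and 1.23 CPM in the PS+CH pools, against 3.32, 2.58, 4.08, 2.01 and 1.81 CPM in the PS pools. LSAT_7X20181 had 3.06, 1.62, 2.61, 2.86 and 2.40 CPM in the PS+CH pools, against 7.88, 3.64, 9.80, 5.69 and 6.09 CPM in the PS pools. LSAT_7X20220 had 0.766, 0.378, 1.53, 0.701 and 0.949 CPM in the PS+CH pools, against 2.81, 1.68, 4.31, 3.34 and 2.31 CPM in the PS pools. All 3 had PS 3 as the highest pool, PS 5 below PS 1, and PS+CH 2 as the lowest. They were 2.23-fold, 2.64-fold and 3.34-fold lower in PS+CH in the order of their tags, and 1.96-fold, 2.32-fold and 2.93-fold without PS 3.

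A pair further along chromosome 7 shared another profile. LSAT_7X80320 had 3.12, 1.19, 3.92, 3.40 and 2.62 CPM in the PS+CH pools, against 5.01, 4.09, 6.35, 12.9 and 8.95 CPM in the PS pools. LSAT_7X80341 had 0.711, 0.108, 1.53, 1.24 and 0.502 CPM in the PS+CH pools, against 2.53, 1.68, 2.49, 5.07 and 3.73 CPM in the PS pools. In both genes PS 4 was the highest pool, PS 5 the second and PS 2 the lowest of PS, and within PS+CH pool 3 was the highest and pool 2 the lowest, while their levels differed more than 2-fold. LSAT_7X80320 was 2.62-fold and LSAT_7X80341 3.79-fold lower in PS+CH, and 2.71-fold and 3.98-fold without PS 3. The libraries were strand-specific, but whether the counting used strand, or reads that map to several places, was not given in the sources used here, so that reads of adjacent, overlapping or nearly identical genes cannot be told apart, and genes of a pair may not be separate measurements.

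LSAT_5X19740 had an adjacent member, LSAT_5X19781. LSAT_5X19781 had 3.99, 1.40, 6.30, 5.01 and 4.47 CPM in the PS+CH pools, against 7.54, 11.6, 12.5, 12.7 and 10.2 CPM in the PS pools. Both genes had PS+CH 2 as the lowest pool by far, but in LSAT_5X19781 the PS pools 2, 3 and 4 were alike where LSAT_5X19740 had PS 3 alone on top. LSAT_5X19781 was 2.57-fold lower in PS+CH, and 2.48-fold without PS 3. On chromosome 4, LSAT_4X124880 and LSAT_4X124900 were adjacent. LSAT_4X124880 had 3.77, 2.91, 7.43, 4.53 and 4.35 CPM in the PS+CH pools, against 12.3, 12.2, 15.0, 11.1 and 7.96 CPM in the PS pools. LSAT_4X124900 had 1.48, 1.19, 2.27, 1.08 and 1.84 CPM in the PS+CH pools, against 4.84, 4.09, 7.42, 4.18 and 2.96 CPM in the PS pools. PS 3 was the highest and PS 5 the lowest PS pool in both, and PS+CH 3 was the highest PS+CH pool in both. Their differences were 2.55-fold and 2.99-fold, and 2.37-fold and 2.56-fold without PS 3.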

How the data were processed

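Strand-specific mRNA libraries of 10 root pools (5 PS+CH, 5 PS) were sequenced. The authors checked reads with FastQC 0.11.9, aligned them with STAR 2.7.10 to the Salinas genome and counted them with featureCounts 2.0.1, and they deposited whole-number counts per gene, without normalization. Whether the counting used strand, and how it treated reads that fit several genes, is not given in the sources used here. Treatments and replicate numbers come from the sample titles, and the numbers in the sample descriptions differ.

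CPM were counts over column totals, with no pseudocount and no filter beyond the limits on the PS mean. Members and lists were chosen with earlier results of these data known. The genes printed were those at the extremes of ratio, level, spread and of the level in PS 3, in runs of neighbours, or next to a limit of the rule. All genes were fitted in R 4.3.3 with edgeR 4.0.16 (TMM, filterByExpr with a minimum count of 10, quasi-likelihood test, Benjamini-Hochberg adjustment), and alternatives used DESeq2 1.42.0 and limma-voom 3.58.1, other scalings and filters, replicate blocks and leaving out each pool. These and the rule were tested on simulated data. The pools hold randomly selected plants, and nothing further says how separate they were. The adjusted p-values therefore set the difference between treatments against the spread between these pools only. The floor of 3 counts covers counting error only. Leaf libraries were not analysed here.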

Additional observations from a re-analysis of the deposited data

Results flagged for a closer look

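PS 3 was far above the other 4 PS pools in the median level of the members, with 155% of the PS mean, and in their summed CPM, with 3953 CPM. The gap to the next pool, divided by the range of the 5 pools, exceeded Dixon's critical value for 5 values (0.71) in both. By chance about 5% of groups would exceed it if their values had not been chosen. The rule used these PS values to choose the members, so that share does not hold for them, their median or their sum. Over single members the PS pools exceeded the critical value in 93 of 328 (28.4%), each time with PS 3 highest. In the window the share for the PS pools was 7.27%. The PS+CH pools exceeded the critical value in 23 members (7.01%), beside 5.67% of the genes of the window.

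Of the members printed above, PS 3 stood this far apart in LSAT_4X116280 (11.1 CPM), LSAT_2X68981 (9.29 CPM), LSAT_3X36460 (28.6 CPM), LSAT_6X3201 (31.6 CPM) and LSAT_3X40760 (4.19 CPM). The same held for LSAT_9X70980 (22.8 CPM), LSAT_1X28480 (37.8 CPM), LSAT_5X19740 (28.8 CPM), LSAT_0X41520 (8.90 CPM) and LSAT_9X87781 (16.04 CPM). In LSAT_5X19740 the lowest PS+CH pool, PS+CH 2 with 2.27 CPM, stood apart as well. Of the genes just outside the limits, PS 3 stood apart in LSAT_1X50801 (3.29 CPM), LSAT_2X11060 (39.2 CPM) and LSAT_2X72561 (8.73 CPM). Of the same genes, a PS+CH pool stood apart in LSAT_2X3461, with PS+CH 2 highest at 10.03 CPM, and in LSAT_2X11060, with PS+CH 2 lowest at 3.40 CPM.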

How the results depend on the processing

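The number of members was 328, and 67 with a limit of 1/3 and 994 with no limit on the fold. Leaving out each pool in turn, it ranged between 209 (without PS 3) and 492 (without PS+CH 3). With TMM, DESeq2's size factors and upper-quartile factors it was 244, 248 and 252, and the genes at least 2-fold higher in PS+CH, 13 with column totals, numbered 27, 26 and 26. The median log2 ratio of the members was between -1.38 and -1.07 with a pool left out. Of the members, 267 were called lower by edgeR, and between 162 (without PS 3) and 292 (without PS 2) with a pool left out. DESeq2 without shrinkage of fold changes called 270 and limma-voom 263. With DESeq2 and limits of the same numbers, the paper reports fewer lower root genes in total than the members that DESeq2 called here. The fold changes here were not shrunk, and the methods of the paper do not say whether its own were. A limit on the fold change may therefore not mean the same in both. Its list therefore cannot hold all of these members. The reason for this difference was not tested. A test against a log2-fold change of 1 (glmTreat) called 0, with 122 members at an unadjusted p-value under 0.05. With the replicate block by title number 268 were called. The deviations of same-numbered pools correlated by 0.48, 0.45, 0.35, -0.01 and 0.01 for title numbers 1 to 5. The value of 0.35 is that of PS 3 and PS+CH 3, the pools most often highest in their treatments. Title numbers are not stated to pair these pools of randomly selected plants, so the main fit had no block. Whether same-numbered pools share variation was not tested. For the numbers of the descriptions the correlations were -0.40, 0.02, -0.17 and 0.01. With the replicate block by the numbers of the descriptions, over 8 libraries, 0 were called, and 259 reached a log2-fold change of at most -1 at an unadjusted p-value under 0.05. In the 209 genes chosen without PS 3, PS 3 was the highest PS pool in 171. Members with a neighbouring member were 20 when adjacent only and 63 within 10 genes, against 33. The median CV over PS pools was 18.9% without PS 3, against 35.1%. Causes were not tested. Depth limits members near 2 CPM most, where a PS+CH library can hold under 10 counts. The settings without PS 3 for the higher genes, spread, position and highest pool were chosen after seeing the data.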
